A study of Cucumis melo with 27 samples.

Results

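The transcript MELO3C025102.2, taken here as CmPSY1, a phytoene synthase gene of melon (Cucumis melo), was followed through leaf and fruit by RNA-seq. The pairing of this identifier with the name CmPSY1 was taken as given, and neither the deposited files nor the reference table used here holds a name to check it against. The gene was chosen by its row identifier, with earlier results of these data known. It is 1 of 2 carotenoid genes selected in this way, among 25200 genes in the files. The other gene, CmOr (MELO3C005449.2), was not analysed here.

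Phytoene synthase works in the plastid, where it joins a pair of geranylgeranyl diphosphate molecules into phytoene, the first committed step of carotenoid synthesis. Desaturases, isomerases and cyclases then turn phytoene into lycopene and the carotenes. In leaves, carotenoids are part of the photosynthetic apparatus, and in fruits they can accumulate as pigment in chromoplasts, as beta-carotene does in orange melon flesh. Abscisic acid is also made from carotenoids. Plants usually carry a small family of phytoene synthase genes, so reads from similar copies may be shared, and the counts carry that uncertainty.

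The series holds 27 libraries from field-grown plants of the cultivars F39 and TTDV, in 9 groups of 3. The groups are F39 leaf at 14 days (d), and F39 fruit and TTDV fruit at 20-25, 30-35, 40 and 45 d after flowering. All plants grew in the same field season, and the labels name no treatment that sets groups apart. Nothing in the labels ties the libraries of a group to different plants or fruits, so p-values measure only the spread between libraries, which may be technical. TTDV leaf was not analysed here. The identifiers in the files carry no gene names, so the leaf and fruit labels could not be set against named tissue markers.

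Each file is headed by a library number, and each sample title ends in one. In the titles both 45 d groups are numbered from 59 to 64 and all other groups from 1 to 21. The labels do not say what sets these numbers apart. As numbered, a difference of 45 d from another stage or leaf cannot be told apart from whatever goes with this break. For 15 libraries the number in the title equals that in the attached file, and for 12 it does not. Values below give a file to the title with its own number. Under the attachment in GEO the same 12 libraries carry other names, in whole groups of 3. The libraries numbered as F39 45 d are attached to TTDV 40 d, those numbered as TTDV 20-25 d to F39 45 d, those numbered as TTDV 30-35 d to TTDV 20-25 d, and those numbered as TTDV 40 d to TTDV 30-35 d. A library's value is thus the same under both namings. For comparisons of stages, of cultivars and with leaf that involve these groups, the values under the attachment are also given. The order of groups, the counts over pairs of groups, transcriptome positions and the levels of similar genes are by library number unless the attachment is named.

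Library totals ran from 6025615 to 28731038 counts, and CmPSY1 had between 130 and 8697 counts per library. Levels are given in CPM, counts scaled to a common library total. In bulk tissue, fewer cells that express a gene and less transcript per cell cannot be told apart.

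In leaf, CmPSY1 was abundant. The 3 leaf libraries had 341.2, 141.6 and 302.7 CPM in replicates 1, 2 and 3, a mean of 261.8 ± 105.9 CPM (SD, n = 3). Replicate 2 stood below the other two. The gene ranked between 269 and 645 among all genes in these libraries, where rank 1 is the most abundant.

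In young F39 fruit the level was low. At 20-25 d the libraries had 57.0, 50.2 and 31.6 CPM, a mean of 46.3 ± 13.1 CPM (SD, n = 3), and the gene ranked between 3457 and 5067. All 3 libraries lay below every leaf library.

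At 30-35 d all F39 libraries were higher than those of 20-25 d, by different amounts. Replicates 1, 2 and 3 had 159.1, 289.6 and 522.6 CPM, a mean of 323.7 ± 184.1 CPM (SD, n = 3). Replicate 3 was the highest of all 27 libraries, and replicate 1 was the nearest to the libraries of 20-25 d. At 40 d the F39 libraries had 244.5, 200.1 and 315.5 CPM, a mean of 253.4 ± 58.2 CPM (SD, n = 3), within the range of 30-35 d. At 45 d they had 150.4, 210.6 and 118.6 CPM, a mean of 159.9 ± 46.7 CPM (SD, n = 3). The 45 d libraries lay lower than those of 40 d, with an overlap of the highest of one and the lowest of the other.

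In TTDV fruit, as numbered, the level was low at both of the first stages. At 20-25 d the libraries had 28.1, 12.6 and 75.3 CPM, a mean of 38.7 ± 32.7 CPM (SD, n = 3). This was the most variable group relative to its mean, with a coefficient of variation of 84.5%, and replicate 3 was 5.99 times replicate 2. At 30-35 d the libraries had 28.0, 37.2 and 33.8 CPM, a mean of 33.0 ± 4.67 CPM (SD, n = 3), all within the range of 20-25 d.

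At 40 d TTDV fruit reached 327.8, 447.8 and 293.2 CPM, a mean of 356.2 ± 81.1 CPM (SD, n = 3). That was the highest group mean in CPM, and the gene ranked between 362 and 557. At 45 d the libraries had 238.8, 286.9 and 228.5 CPM, a mean of 251.4 ± 31.2 CPM (SD, n = 3), each below every library of 40 d.

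**Figure D1:**
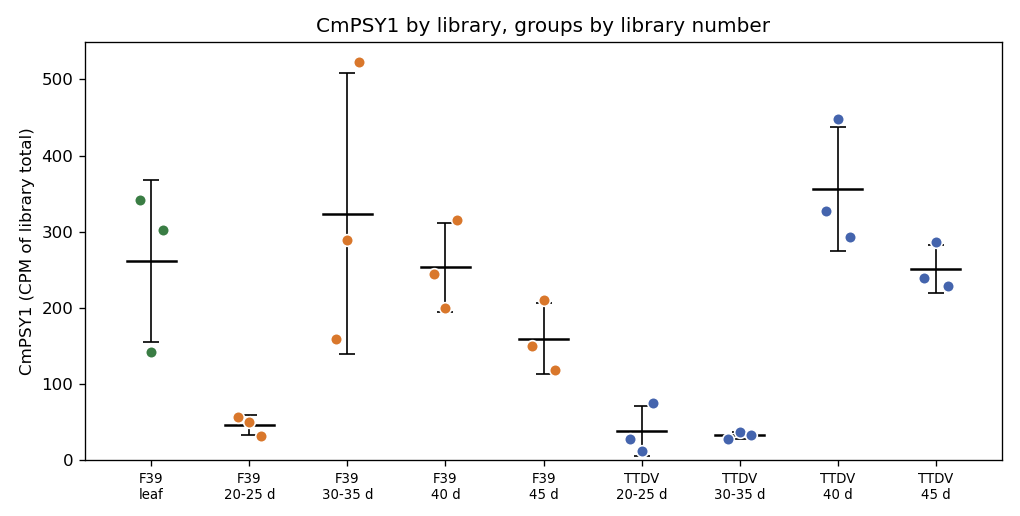
Each point is 1 library, with CmPSY1 in CPM of the library total on the vertical axis, and bars show the mean and SD of each group of 3 named by library number. F39 20-25 d, TTDV 20-25 d and TTDV 30-35 d lie at or below 75.3 CPM, and every other library lies at 118.6 CPM or above.

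Ordered by mean CPM, the groups ran from TTDV 30-35 d through TTDV 20-25 d, F39 20-25 d, F39 45 d, TTDV 45 d, F39 40 d, F39 leaf and F39 30-35 d to TTDV 40 d. Neighbours in this order were compared in one model of all libraries with edgeR's quasi-likelihood test, adjusted by Benjamini-Hochberg over all 15130 genes tested. The model does not scale by the library total, as the order does, but by TMM, described below. From leaf to F39 30-35 d the mean CPM rose from 261.8 to 323.7, but the model gave a log2 change of -0.63 (SE 0.48). Of the 8 neighbouring pairs, 1 passed the threshold of 0.05 for the adjusted p. It was the gap between F39 20-25 d and F39 45 d, with a log2 change of 1.82 (SE 0.50, adjusted p = 0.00855 by edgeR), a comparison in which 31.7% of all genes passed. As attached in GEO, F39 45 against 20-25 d was -0.11 and did not pass (adjusted p = 0.976 by edgeR, 0.185% of all genes passing). The libraries of F39 45 d and TTDV 45 d did not overlap either, but that step did not pass (log2 change 0.66, SE 0.48, adjusted p = 0.785 by edgeR, 0.297% of all genes passing). The libraries of the other neighbours overlapped.

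Over all 36 pairs of groups CmPSY1 passed in 19. These were the 18 pairs that join one of the 3 lowest groups to one of the other 6, with between 5.87% and 46.9% of all genes passing in them, and F39 45 d against leaf, with 51.2%. Since the order was read from the same values, these counts describe the levels and are no separate test of a division into low and high.

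F39 fruit was compared with F39 leaf at each stage, in the same edgeR model. At 20-25 d CmPSY1 was lower in fruit, with a log2 change of -3.54 (SE 0.53, 95% interval -4.65 to -2.44), which is 11.7-fold, with adjusted p = 2.03e-05 by edgeR. In this comparison 41.1% of all genes passed. At 30-35 d the difference was -0.63 (SE 0.48, adjusted p = 0.300 by edgeR, 44.8% passing) and at 40 d it was -0.81 (SE 0.48, 95% interval -1.82 to 0.19, adjusted p = 0.169 by edgeR, 49.2% passing). Neither passed, and the interval at 40 d includes both no difference and a 3.52-fold lower level in fruit.

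The size of the leaf differences depended on scaling. The factors of TMM, the trimmed mean scaling that edgeR uses, were 0.604, 0.536 and 0.530 in leaf replicates 1, 2 and 3 and between 0.877 and 1.302 in fruit libraries, so the model placed leaf higher than CPM of the library total does. With TMM scaling the leaf mean was 466.9 ± 175.6 CPM (SD, n = 3), the highest of the 9 groups, against 265.8 ± 62.8 CPM (SD, n = 3) in F39 fruit at 40 d. With library totals only, the log2 change was -2.50 at 20-25 d (adjusted p = 2.76e-04 by edgeR), 0.31 at 30-35 d and -0.05 at 40 d, and the median gene shifted from 0.085, 0.162 and -0.031 to 1.142, 1.100 and 0.730 in these comparisons. The value of CmPSY1 was below that of the median gene at each of these stages under both scalings.

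F39 fruit at 45 d was lower than leaf by a log2 change of -1.72 (SE 0.50, adjusted p = 0.00646 by edgeR). The libraries overlapped in CPM, and with library totals only the value was -0.71 and did not pass (adjusted p = 0.203 by edgeR). As attached in GEO, the F39 45 d libraries gave -3.66 (adjusted p = 1.27e-05 by edgeR, 45% of all genes passing).

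**Figure D2:**
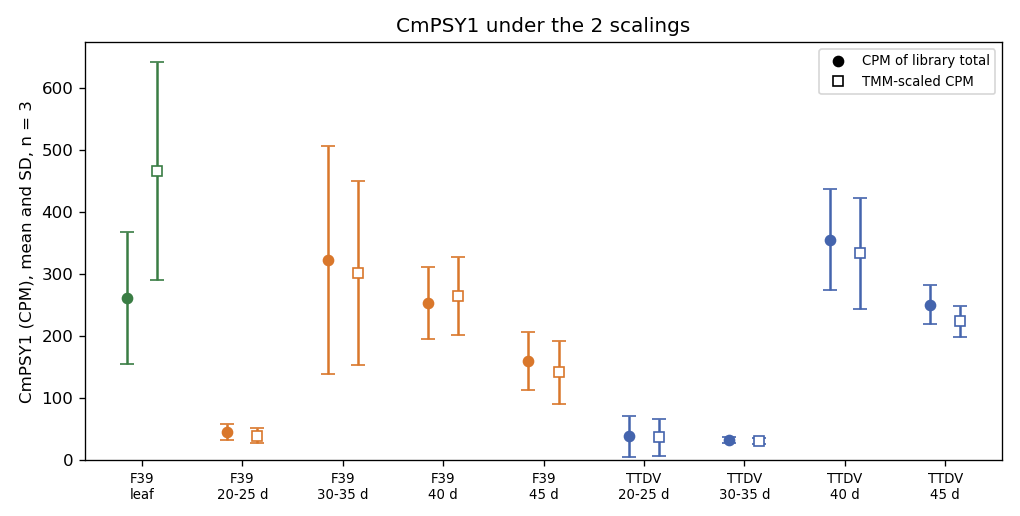
Group means of CmPSY1 with SD (n = 3) are shown in CPM of the library total (filled circles) and in TMM-scaled CPM (open squares). The leaf mean moves from 261.8 to 466.9 CPM, whereas F39 40 d moves from 253.4 to 265.8 CPM.

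The stages of F39 fruit address the course of the gene through development. Between 20-25 and 30-35 d CmPSY1 rose by a log2 change of 2.91 (SE 0.52, 95% interval 1.84 to 3.99), or 7.53-fold, with adjusted p = 0.00493 by edgeR. In this step 5.87% of all genes passed, and the gene ranked 35 of 15130 by p. Both figures depended on single libraries. In the 6 fits without 1 library, 68 to 2222 genes passed and CmPSY1 ranked between 31 and 105. The 2222 genes and rank 105 came without replicate 1 of 30-35 d. With only the 6 libraries of these stages in the fit the value was 2.93 but did not pass (adjusted p = 0.195 by edgeR). In that fit the spread came from 2 groups, 0 of 12974 genes passed, and CmPSY1 ranked 32 by p.

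The next F39 steps did not pass. Between 30-35 and 40 d the log2 change was -0.18 (SE 0.48, 95% interval -1.18 to 0.82, adjusted p = 0.919 by edgeR, 0.74% of all genes passing), and it was 0.20 without replicate 3 of 30-35 d. Between 40 and 45 d it was -0.91 (SE 0.49, adjusted p = 0.260 by edgeR, 7.45% passing). As attached in GEO the 40 to 45 d step was -2.84 (adjusted p = 3.54e-04 by edgeR, 38.7% passing), since the 45 d libraries then are those of 12.6 to 75.3 CPM. From 20-25 to 40 d the rise was 2.73 (SE 0.51, adjusted p = 0.00112 by edgeR), or 6.63-fold, and 26.1% of all genes passed.

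In TTDV fruit, as numbered, the step that passed was the one from 30-35 to 40 d. Between 20-25 and 30-35 d the log2 change was -0.26 (SE 0.48, 95% interval -1.26 to 0.74, adjusted p = 0.878 by edgeR), with 0.284% of all genes passing. Without replicate 3 of 20-25 d it was 0.57. Between 30-35 and 40 d CmPSY1 rose by 3.43 (SE 0.53, 95% interval 2.33 to 4.53), or 10.8-fold, with adjusted p = 2.90e-04 by edgeR and 26.2% of all genes passing. Between 40 and 45 d the change was -0.57 (SE 0.48, adjusted p = 0.568 by edgeR, 1.86% passing). From 20-25 to 40 d the rise was 3.17 (SE 0.52, adjusted p = 2.29e-04 by edgeR, 35.1% passing), or 9.01-fold. Without replicate 3 of 20-25 d that value was 3.97.

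As attached in GEO, TTDV fruit had a mean of 33.0 CPM at 20-25 d, 356.2 CPM at 30-35 d, 159.9 CPM at 40 d and 251.4 CPM at 45 d. The rise of 3.43 then is the step from 20-25 to 30-35 d, as early as in F39. The next step, from 30-35 to 40 d, was -1.24 (SE 0.49, adjusted p = 0.169 by edgeR, 2.79% of all genes passing). The step from 40 to 45 d was 0.66 (SE 0.48, adjusted p = 0.785 by edgeR, 0.297% passing). The rise from 20-25 to 40 d was 2.19 (SE 0.50, adjusted p = 0.00224 by edgeR, 36% passing). A rise of CmPSY1 from 20-25 to 40 d therefore passed in TTDV under both namings, and its timing in TTDV depended on the naming. In F39 the groups of 20-25 and 40 d hold the same libraries under both namings, so the naming could not change that rise.

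The cultivars were set against each other at each stage. At 20-25 d the log2 change of TTDV over F39 was -0.11 (SE 0.48, 95% interval -1.11 to 0.89, adjusted p = 0.976 by edgeR, 0.185% of all genes passing), and its sign turned in 3 of 6 fits without 1 library. At 30-35 d CmPSY1 was lower in TTDV by -3.28 (SE 0.53, 95% interval -4.38 to -2.19), which is 9.74-fold, with adjusted p = 0.00191 by edgeR. In that comparison 8.52% of all genes passed, and the gene ranked 18 of 15130 by p. In its 6 fits without 1 library, 221 to 2687 genes passed and CmPSY1 ranked between 13 and 124. The 2687 genes came without replicate 1 of F39 30-35 d, where it ranked 83. Every TTDV library of that stage, at 28.0 to 37.2 CPM, lay below every F39 library, at 159.1 to 522.6 CPM.

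At the later stages no difference between cultivars passed. The log2 change was 0.33 at 40 d (SE 0.48, 95% interval -0.67 to 1.33, adjusted p = 0.860 by edgeR, 0.185% of all genes passing) and 0.66 at 45 d (SE 0.48, 95% interval -0.34 to 1.67, adjusted p = 0.785 by edgeR, 0.297% passing). Over the 4 stages together it was -0.60 (SE 0.24, adjusted p = 0.126 by edgeR, 8.8% passing). This value did not pass in 23 of 24 fits without 1 library (adjusted p up to 0.219 by edgeR). Without replicate 3 of TTDV 20-25 d it was -0.82 and passed (adjusted p = 0.0222 by edgeR). The value at 30-35 d with only its 6 libraries fitted was -3.29 and did not pass (adjusted p = 0.276 by edgeR). In that fit 0 of 12914 genes passed, and CmPSY1 ranked 13 by p.

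As attached in GEO, the cultivars stood otherwise. TTDV over F39 was then 0.15 at 30-35 d (adjusted p = 0.907 by edgeR, 4.34% of all genes passing) and 2.60 at 45 d (SE 0.51, adjusted p = 5.84e-04 by edgeR, 40.2% passing). At 20-25 d it was -0.37 (0.218% passing), at 40 d -0.91 (7.45% passing) and over the 4 stages 0.37 (28.2% passing), and none of these 3 passed.

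Whether the steps themselves differed between cultivars was tested as an interaction. For the change from 20-25 to 40 d, TTDV minus F39 was 0.44 (SE 0.68, adjusted p = 0.898 by edgeR), in a comparison where edgeR called 0% of all genes. It was 1.23 without replicate 3 of TTDV 20-25 d and -0.080 without replicate 2. For the first step, from 20-25 to 30-35 d, it was -3.17 (SE 0.70, unadjusted p = 1.63e-04, adjusted p = 0.0881 by edgeR, 0% of all genes passing), and for the step from 30-35 to 40 d it was 3.61 (SE 0.70, unadjusted p = 3.74e-05, adjusted p = 0.0534 by edgeR, 0.0132% passing). These 2 tests of single steps were added after the values were seen, and neither passed in edgeR. Beside the counts of 0 for the change from 20-25 to 40 d and for the first step, edgeR had 1414 and 1821 genes at an unadjusted p under 0.05, and DESeq2 called 117 and 318 genes. DESeq2, a second count model, gave -3.13 (adjusted p = 0.00191) and 3.41 (adjusted p = 4.92e-04), which passed. In edgeR each single-step interaction did not pass in 10 of 12 fits without 1 library (adjusted p up to 0.243 and 0.154). With only the groups compared, neither passed (adjusted p = 0.487 and 0.472 by edgeR). Without replicate 1 of F39 30-35 d both passed in edgeR (-3.47 with adjusted p = 0.00646, and 3.87 with adjusted p = 0.00435). In that fit 533 and 620 genes passed. The first also passed without replicate 2 of TTDV 20-25 d (-3.60, adjusted p = 0.0408 by edgeR) and was -2.29 without replicate 3 of that group, and the second passed without replicate 3 of TTDV 30-35 d (3.43, adjusted p = 0.0474 by edgeR) and with library totals only (3.79, adjusted p = 0.0360 by edgeR). As attached in GEO they were 0.52 (2.25% passing) and -1.05 (1.79% passing), the interaction from 20-25 to 40 d was -0.54 (4.82% passing), and none of the 3 passed.

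**Figure D3:**
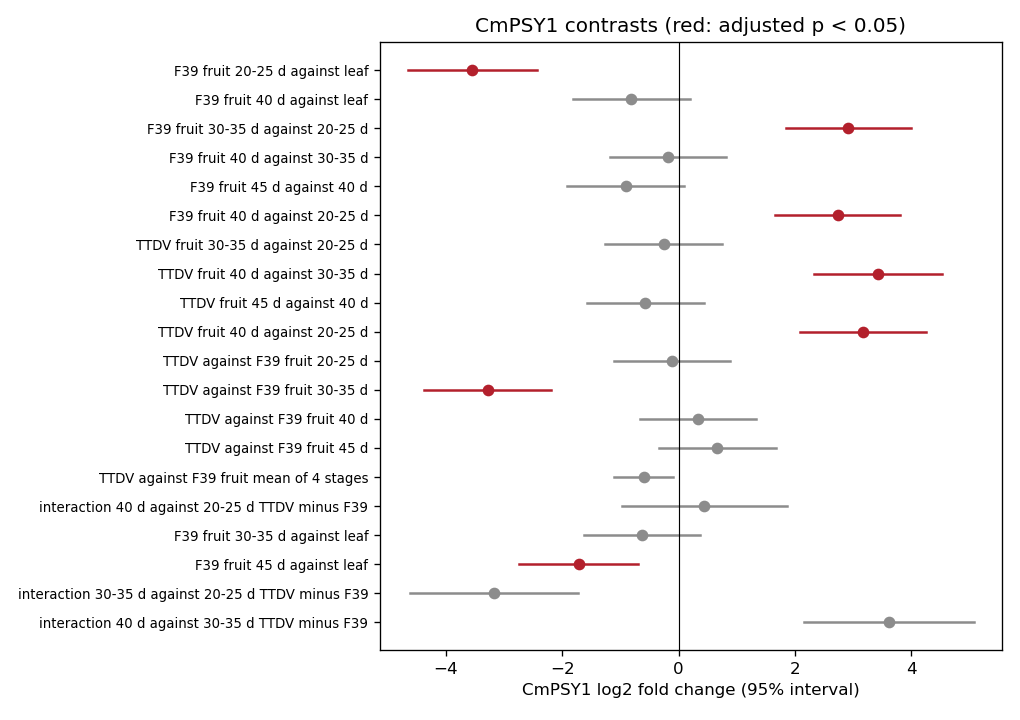
Points show the log2 change of CmPSY1 in each comparison, named by library number, and lines its 95% interval from edgeR. Red marks an adjusted p below 0.05. In red are the F39 rises from 20-25 d to 30-35 and to 40 d, and the TTDV rises to 40 d from 20-25 and from 30-35 d. Also in red are the lower level of TTDV at 30-35 d, and the lower level of F39 fruit than leaf at 20-25 and 45 d.

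The libraries of F39 30-35 d lay farther apart than those of any other fruit group along the transcriptome shift from F39 20-25 d to F39 40 d. A transcriptome position was computed for each fruit library from 10194 other genes, set to 0 at the mean of F39 20-25 d and 1 at the mean of F39 40 d. A library of either group was left out of the mean used for its own position, and F39 20-25 d lay at 0.064, 0.090 and 0.047. The position is not a measure of age: as numbered, TTDV 45 d lay at 0.895, 0.770 and 0.733, within the range of TTDV 40 d. The 3 libraries of F39 30-35 d lay at 0.177, 0.954 and 0.561 and had 159.1, 289.6 and 522.6 CPM of CmPSY1, so that the highest level belonged to the middle position. Replicate 1, at 0.177, had more CmPSY1 than any fruit library at a lower position, the highest of which was TTDV 20-25 d replicate 3 with 75.3 CPM at 0.016.

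The TTDV 30-35 d libraries lay at 0.134, 0.063 and 0.087, all above those of TTDV 20-25 d at -0.0135, -0.052 and 0.016, and their CmPSY1 of 28.0 to 37.2 CPM was within the range of 20-25 d. At 40 d the TTDV libraries lay at 0.892, 0.690 and 0.922, and the library at 0.690 had the highest CmPSY1 of the 3, at 447.8 CPM. F39 45 d lay between 0.832 and 0.896, with 118.6 to 210.6 CPM, and F39 40 d at 0.867, 1.024 and 0.825 in replicates 1, 2 and 3, with 244.5, 200.1 and 315.5 CPM. As attached in GEO, F39 45 d holds the libraries at -0.0135, -0.052 and 0.016, while F39 40 d holds the same libraries under both namings. Which naming is right was not tested. Over the 24 fruit libraries CmPSY1 was low where the position was low and high where it was high: those at 0.134 or below had at most 75.3 CPM, and those at 0.561 or above had at least 118.6 CPM. The part of the general transcriptome shift in the CmPSY1 differences was not tested.

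**Figure D4:**
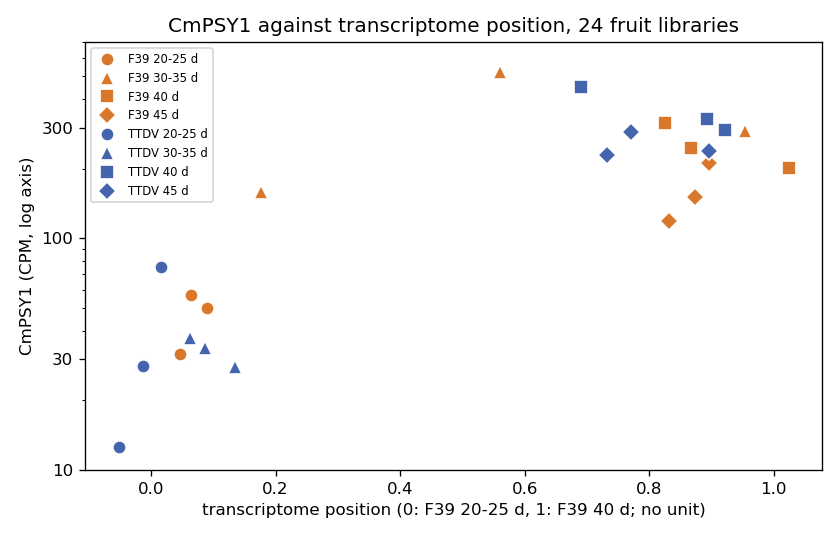
The horizontal axis is the transcriptome position of each of the 24 fruit libraries (0 at F39 20-25 d, 1 at F39 40 d) and the vertical log axis is CmPSY1 in CPM, with colour for cultivar and shape for stage by library number. Libraries below 0.15 have at most 75.3 CPM, and the highest level, 522.6 CPM, lies at 0.561.

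The genes most like CmPSY1 over the 27 libraries were sought among 10468 genes that passed the filter on low counts and averaged 5 CPM or more. The measure was Pearson's r of log2(CPM + 1), given as a description, since all values share the same libraries and stages. MELO3C006129.2 was most alike, with r = 0.91, and was the only gene above 0.9 with leaf included. Over the 24 fruit libraries alone it had r = 0.91 and ranked 11, while MELO3C013632.2 and MELO3C002314.2 led with r = 0.93 each. It had 164.2 ± 31.5 CPM in leaf, 55.3 ± 13.5 CPM in F39 fruit at 20-25 d, 178.2 ± 13.3 CPM in F39 fruit at 40 d, 41.5 ± 16.6 CPM in TTDV fruit at 30-35 d and 202.0 ± 49.1 CPM in TTDV fruit at 40 d (SD, n = 3 each). Its F39 means at 30-35 and 45 d were 164.8 ± 81.8 and 161.9 ± 10.5 CPM (SD, n = 3 each), where those of CmPSY1 were 323.7 and 159.9 CPM.

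MELO3C013811.2 came next over the 27 libraries, with r = 0.88, and ranked 29 over the fruit libraries with r = 0.89. It had 60.03 ± 9.76 CPM in leaf, 7.26 ± 4.67 CPM in F39 fruit at 20-25 d and 93.8 ± 32.8 CPM at 40 d, and 4.75 ± 1.77 CPM in TTDV fruit at 30-35 d and 100.4 ± 18.03 CPM at 40 d (SD, n = 3 each). In F39 at 30-35 d its libraries ran from 5.94 to 83.7 CPM. Over all genes compared, the median r with CmPSY1 was -0.066. None of these genes is paired with a name in the files or in the reference table used here.

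**Figure D5:**
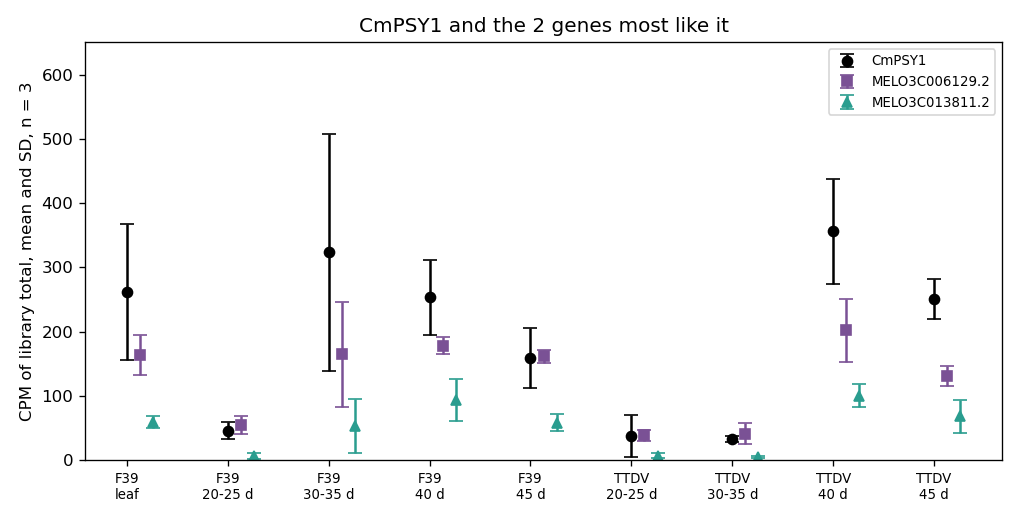
Group means with SD (n = 3) in CPM are shown for CmPSY1 (black circles), MELO3C006129.2 (purple squares) and MELO3C013811.2 (green triangles), with groups by library number. All 3 genes are low in F39 20-25 d, TTDV 20-25 d and TTDV 30-35 d, where MELO3C006129.2 averages 55.3, 39.2 and 41.5 CPM.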

How the data were processed

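Per the labels' protocols, RNA from powdered frozen leaf or fruit was extracted with Trizol, treated with DNase and made into libraries with a NuGen mRNA kit. The files deposited by the authors hold raw counts per gene, 1 library per file. Per the submitters' processing notes, which give no roles, the tools were STAR 2.5.4b and edgeR 3.12.1. The counting program, genome build, annotation and strand setting were not given in these sources. Among the 27 files, 0 pairs were identical.

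Counts were fitted with edgeR 4.0.16 (limma 3.58.1, R 4.3.3): filterByExpr (15130 of 25200 genes, CmPSY1 among them), TMM scaling, 1 mean per group over 27 libraries and the quasi-likelihood F-test (robust), adjusted by Benjamini-Hochberg. The script was tested on simulated data with less spread than these data, so that test does not show how reliable the calls here are. SEs are the log2 fold change over the root of F. Alternatives were the attachment in GEO, DESeq2 1.42.0, median-of-ratios scaling, library totals only, no filter, a stricter filter (1 CPM in 3 libraries and a mean of 5 CPM), only the groups compared, and each library left out. Fits of only the 15 libraries with agreeing numbers or without F39 30-35 d, library totals only, the F39 leaf comparisons at 30-35 and 45 d, and the interactions of single steps were added after the values were seen.

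Named genes are CmPSY1 and the 2 genes most like it over 27 libraries; the 2 that led over fruit libraries alone were added after their values were seen. The gene and all rules were chosen with earlier results of these data known. The identifiers matched 0 entries of the RefSeq gene table (USDA_Cmelo_AY_1.0), so that other carotenoid genes could not be counted by name and no sequence is shown. Figures used Python 3.11.15, pandas 2.3.3, numpy 2.4.6 and matplotlib 3.10.9.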

Additional observations from a re-analysis of the deposited data

How the results depend on the processing

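Of 313 refits over 20 comparisons, 284 kept the direction and the side of the threshold. They include refits under the attachment in GEO that could not change, those among F39 leaf and F39 fruit up to 40 d. Fits without 1 library share most of their data, so the refits are not independent. Naming files by their attachment in GEO gave F39 45 against 40 d -2.84, TTDV 30-35 against 20-25 d 3.43, TTDV 40 against 30-35 d -1.24, TTDV 45 against 40 d 0.66, TTDV over F39 0.15 at 30-35 d, -0.91 at 40 d, 2.60 at 45 d and 0.37 over the 4 stages, and interactions of -0.54 (20-25 to 40 d), 0.52 (20-25 to 30-35 d) and -1.05 (30-35 to 40 d), all log2. With only the groups compared, F39 30-35 against 20-25 d (2.93) and TTDV over F39 at 30-35 d (-3.29) no longer passed. Each of these fits called 0 genes, and the cause was not tested. DESeq2 brought the interactions of the first and second step past the threshold (-3.13 and 3.41). Library totals only, which drop the scaling factors, turned F39 30-35 d against leaf (0.31), ended the call for F39 45 d against leaf (-0.71) and brought the interaction from 30-35 to 40 d past the threshold (3.79). Leaving out 1 library gave -0.47 to 0.20 for F39 40 against 30-35 d, -0.74 to 0.57 for TTDV 30-35 against 20-25 d, -0.96 to 0.35 for TTDV over F39 at 20-25 d, -0.82 to -0.50 over the 4 stages, -0.080 to 1.23 for the interaction from 20-25 to 40 d, -3.60 to -2.29 for that from 20-25 to 30-35 d and 3.20 to 3.87 for that from 30-35 to 40 d. The rises of F39 and of TTDV from 20-25 to 40 d passed in every refit run. The planned ratio and correlation of CmPSY1 with CmOr were not run, since CmOr was not analysed here. No paired analysis was possible because the labels give each library its own number and no number is shared between groups. With at least 130 counts of CmPSY1 per library, the spread between libraries and not depth limits these values.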
